A study of Mus musculus with 6 samples.

Results

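The regions described here are sites of estrogen receptor alpha (ERα) in the mouse uterus that were called with ICI and with Tam in the AF-2 mutant and with neither ligand in the wild type. They were chosen by the peak calls themselves: the peaks of all 6 deposited lists were merged wherever they overlapped by at least 1 bp, and a merged region was kept if it held a peak of Af2KI ICI and one of Af2KI Tam and no peak of WT ICI or WT Tam. The rule kept 6905 of 65146 merged regions, or 10.9% of the 63548 regions with a ligand peak. They are called mutant dual-ligand regions below. Their count and the calls that the rule used are a description and not a finding. The vehicle lists entered the merge, where a peak can widen a region or join others, but no vehicle call was required or barred.

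ERα binding was profiled by chromatin immunoprecipitation and sequencing with the antibody ER[alpha] Santa Cruz SC-542 in uteri of ovariectomized C57BL/6J females aged 12 weeks, which carried the ERalpha AF-2 mutant receptor (Af2KI) or were wild-type (WT) littermates. Mice received fulvestrant/ICI182780 (ICI) or tamoxifen (Tam) at 2 mg/kg in DMSO, or 50 µl DMSO as vehicle (Veh), and uteri were taken after 1 h. The 6 groups had 1 library each, made from 1 pool of 6 uteri. Sample titles include E1h, a code left unexplained by the labels, so that it is not known whether it stands for more than the time. All groups lack the ovaries, and the labels do not give the residues changed in the mutant receptor. With 1 library per group, genotype and library cannot be told apart, no spread between replicates exists, and no test between groups was possible. Shares are followed by their 95% interval in parentheses (binomial, Clopper-Pearson), and these intervals hold counting error alone. A peak from whole uterus does not say in which cell type the receptor sat, and lists of positions allow no check of the tissue against marker genes.

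ERα is a nuclear receptor that binds DNA at estrogen response elements or through other factors, and recruits coactivators to switch genes on. AF-2 is the ligand-dependent activation surface of its ligand-binding domain, on which estrogen opens a docking site for coactivators and antagonists block it. ICI is a steroidal antagonist that also leads to receptor degradation. Tamoxifen, a nonsteroidal ligand with a triphenylethylene core, is an antagonist in breast and a partial agonist in uterus. With a mutated AF-2, antagonists of both kinds can activate the receptor in some tissues, and the comparison asks at which sites the mutant receptor was called with both ligands while the wild-type receptor was called with neither.

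Mutant dual-ligand regions held vehicle peaks of the mutant far more often than vehicle peaks of the wild type. A mutant vehicle peak lay in 650 of the 6905 regions, or 9.41% (8.73 to 10.1), against 5.87% of all regions with a ligand peak. A wild-type vehicle peak lay in 125, or 1.81% (1.51 to 2.15), against 5.21% of all regions with a ligand peak. Per region with a wild-type vehicle peak there were thus 5.20 with a mutant one, while over all regions with a ligand peak this ratio was 1.13. The mutant vehicle list was the longer of the pair, with 5027 peaks against 3712, a ratio well under 5.20. The other 6235 mutant dual-ligand regions, 90.3%, held no vehicle peak.

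The reverse was seen in the wild-type counterpart, the 1976 regions called with ICI and Tam in the wild type and with neither in the mutant. There, 107 regions held a wild-type vehicle peak, or 5.41% (4.46 to 6.51), and 30 a mutant one, or 1.52% (1.03 to 2.16). The ratio of mutant to wild-type vehicle peaks was 0.280 in these regions, and their intervals for each vehicle list lie apart from those of the mutant dual-ligand regions. Vehicle peaks had a small part in shaping the regions. With regions merged from the 4 ligand lists alone, 6909 mutant dual-ligand regions resulted, of which 9.47% (8.79 to 10.2) overlapped a mutant vehicle peak and 1.82% (1.52 to 2.17) a wild-type one. The 1977 wild-type counterpart regions of that merge gave 1.62% (1.11 to 2.28) and 5.36% (4.41 to 6.45). The vehicle calls were thus divided by genotype in the same direction as the ligand calls also where they had no part in the choice of the regions. Whether this division belongs to the receptor or to the preparation of the libraries was not tested.

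Set against the 15144 regions called in all 4 ligand lists, the mutant dual-ligand regions were nearly level in the mutant vehicle list and far lower in the wild-type one. Of the regions in all 4 ligand lists, 8.60% (8.16 to 9.06) held a mutant vehicle peak, an interval that overlaps that of the mutant dual-ligand regions. A wild-type vehicle peak was held by 14.2% (13.6 to 14.8). Regions called in every ligand list but WT ICI had 8.23% (7.62 to 8.87) for the mutant vehicle list and, between the other sets, 5.01% (4.53 to 5.52) for the wild-type one. Mutant regions called with 1 ligand alone held fewer mutant vehicle peaks: 3.06% (2.70 to 3.45) of the 8430 regions of Af2KI ICI alone and 6.70% (5.90 to 7.57) of the 3569 regions of Af2KI Tam alone. Their ratios of mutant to wild-type vehicle peaks, 4.87 and 3.68, were of the same order as the 5.20 of the mutant dual-ligand regions. The excess of mutant over wild-type vehicle calls thus also appeared in mutant regions of a single ligand. In those of Af2KI ICI alone it came with few calls in both vehicle lists. Their mutant share was below the 5.87% of all regions with a ligand peak, and their wild-type share was 0.629% (0.471 to 0.822).

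**Figure D1:**
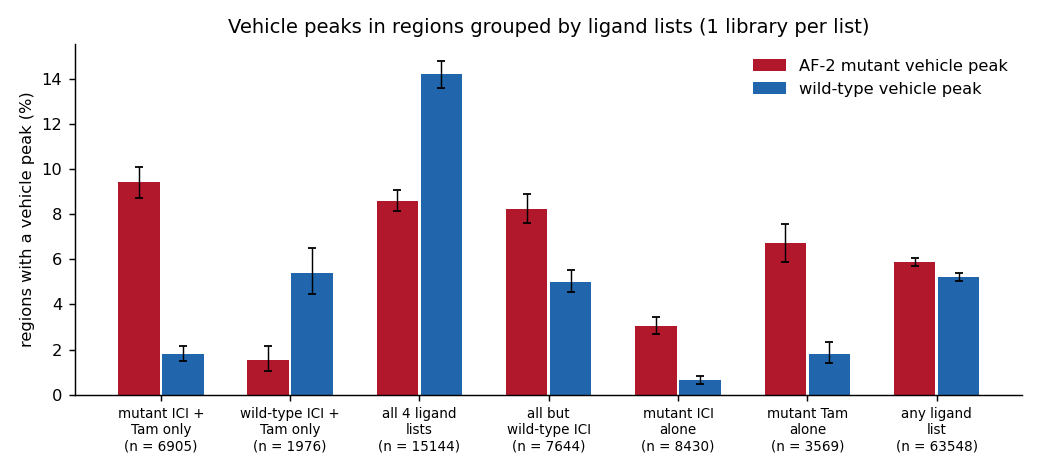
Share of merged regions (%, vertical axis) that hold a peak of the AF-2 mutant vehicle list (red) or of the wild-type vehicle list (blue), for regions grouped by the ligand lists that hold them; bars are shares of 1 library each and error bars are exact 95% binomial intervals. Red exceeds blue in the mutant ICI + Tam only regions (9.41% against 1.81%), and blue exceeds red in their wild-type counterpart and in the regions of all 4 ligand lists.

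As shares of the vehicle lists, 12.9% of mutant vehicle peaks (12.0 to 13.9) lay in mutant dual-ligand regions, against 3.37% of wild-type vehicle peaks (2.81 to 4.0). The regions of all 4 ligand lists took 25.9% of mutant and 57.9% of wild-type vehicle peaks. Of the ligand lists, the mutant dual-ligand regions took 15.1% of Af2KI ICI peaks and 18.9% of Af2KI Tam peaks, as the rule sets.

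Most of the few mutant dual-ligand regions with a wild-type vehicle peak also held a mutant vehicle peak. This was so for 105 of the 125, or 84.0% (76.4 to 89.9), and the other 20 held a wild-type vehicle peak alone. In the regions of all 4 ligand lists, the same share was 21.3% (19.6 to 23.1), and over all regions with a ligand peak it was 30.2% (28.6 to 31.8). It was also high in regions called in every ligand list but WT ICI, at 67.4% (62.4 to 72.0). In regions of Af2KI ICI alone it was 64.2% (49.8 to 76.9) and in those of Af2KI Tam alone 46.2% (33.7 to 59.0). A high share is thus not particular to the mutant dual-ligand regions. The wild-type counterpart had 30 regions with a mutant vehicle peak. Of these, 7 also held a wild-type vehicle peak, or 23.3% (9.93 to 42.3). The 105 regions were thus called in all 3 mutant lists and in wild-type vehicle, but in neither wild-type ligand list. They lay on 18 chromosomes, with 15 regions on chromosome 2 and none on chromosome 18 or X. Of all 6905 mutant dual-ligand regions, 550 lay on chromosome 2, 258 on chromosome 18 and 136 on X. The 105 regions are too few to compare chromosomes.

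All deposited peaks are 200 bp wide, so the distance between their starts is the distance between their midpoints. A vehicle peak counts as lying in a region only if it overlaps the other peaks of the region, so a short distance between them is set by the merge, and the offsets are given as a description. Mutant vehicle peaks had a median offset of 25 bp from the ICI peak (interquartile range 9 to 50, 649 regions) and of 25 bp from the Tam peak (10 to 54, 650 regions). In the regions of all 4 ligand lists, the mutant vehicle peak lay a median of 31 bp from the mutant ICI peak and 30 bp from the mutant Tam peak. Wild-type vehicle peaks in the mutant dual-ligand regions lay a median of 12 bp from the mutant ICI peak and 11 bp from the mutant Tam peak (125 regions each). In the 105 regions with both vehicle peaks, these lay a median of 10 bp apart (5 to 20), against 26 bp (11 to 49) in the 459 such regions of all 4 ligand lists. The shorter distance in the mutant dual-ligand regions is likewise a description. The largest distance was 118 bp in the mutant dual-ligand regions and 209 bp in the regions of all 4 ligand lists. A reason for the difference was not tested.

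The ICI and Tam peaks of the mutant, from the same dose and time, had to overlap to be merged unless another peak joined them, which holds their offset under 200 bp. Their offsets therefore describe values that the rule used. In 6904 of the 6905 regions each ligand had 1 peak, and the remaining region held 2 ICI peaks. The median offset between the ICI and Tam midpoints was 17 bp (8 to 32), the largest was 229 bp, and 90.0% (89.3 to 90.7) lay within 50 bp of each other. In 124 regions both ligands gave exactly the same position. The regions of all 4 ligand lists had a smaller offset for the same pair of mutant lists, with a median of 10 bp (5 to 20) and 95.5% (95.2 to 95.8) within 50 bp. Regions of every ligand list but WT ICI were similar to the latter, with a median of 12 bp and 95.1% (94.6 to 95.6). In the wild-type counterpart, ICI and Tam lay a median of 24 bp apart (11 to 45), and 79.1% (77.2 to 80.9) were within 50 bp. For the same wild-type lists, regions of all 4 ligand lists had a median of 16 bp and 89.7% (89.2 to 90.1). In both genotypes the offsets of the sites of 1 genotype alone were thus wider than those of the sites in all 4 ligand lists. Mutant dual-ligand regions that also held a mutant vehicle peak had 84.6% (81.6 to 87.3) of ICI and Tam midpoints within 50 bp, and those without a vehicle peak 90.6% (89.8 to 91.3). In the regions of all 4 ligand lists, the share was 91.5% (89.9 to 93.0) with a mutant vehicle peak. Without a vehicle peak it was 95.7% (95.3 to 96.0). A lower share with a mutant vehicle peak is thus not particular to the mutant dual-ligand regions, and its reason was not tested. Most mutant dual-ligand regions were narrow, with a median width of 218 bp (208 to 234) and a maximum of 565 bp.

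The mutant dual-ligand regions were not far from called wild-type sites. A WT ICI or WT Tam peak lay within 1 kb of 1077 regions, or 15.6% (14.7 to 16.5). All regions of mutant ligand lists alone, these included, had the same share, 15.6%, so that this nearness is no feature of the dual-ligand regions. A wild-type ligand peak lay within 10 kb of 55.2% (54.0 to 56.4) of them, and the median gap was 8318 bp (2314 to 22654). To WT ICI peaks alone the median gap was 13874 bp and to WT Tam peaks alone 10327 bp, and WT ICI was the shorter list with 26482 peaks against 37327. No wild-type ligand peak lay within 100 kb of 295 regions, or 4.27% (3.81 to 4.78). In the wild-type counterpart, 13.4% (11.9 to 15.0) had a mutant ligand peak within 1 kb, the median gap was 10588 bp, and 8.35% (7.17 to 9.66) had none within 100 kb. Over all regions of wild-type ligand lists alone, these included, 16.5% (15.8 to 17.1) had one within 1 kb. Their median gap was 9800 bp, and 6.81% (6.37 to 7.26) had none within 100 kb. The mutant lists searched there held 45837 ICI and 36538 Tam peaks.

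**Figure D2:**
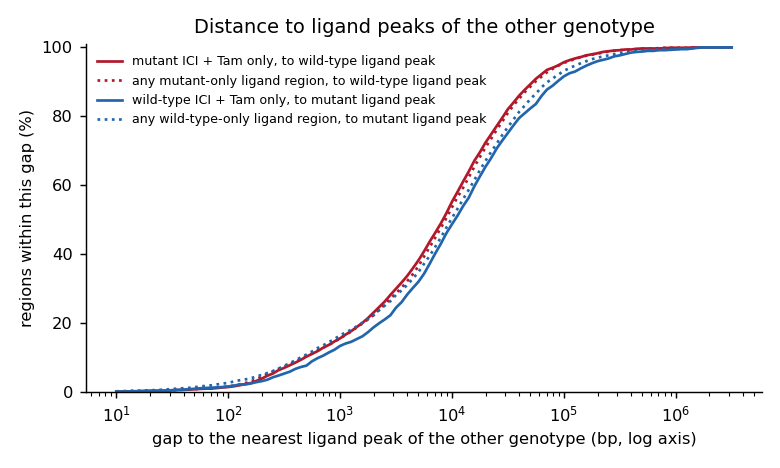
Share of regions (%, vertical axis) whose nearest ligand peak of the other genotype lies within the gap on the horizontal axis (bp, log axis); solid lines are regions of both ligands in 1 genotype alone, dotted lines any ligand region of that genotype alone. The red solid and dotted lines nearly coincide, with 15.6% of each within 1 kb. The blue solid line runs below both from a gap of 141 bp until all lines meet at the top. At 35 to 89 bp it lies slightly above both red lines.

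At the edge of the rule, 11 mutant dual-ligand regions had a wild-type ligand peak less than 10 bp away, at gaps of 0 to 8 bp (median 4). Another 11 regions with both mutant ligands were kept out by an overlap with a wild-type ligand peak of at most 10 bp, from 1 to 9 bp (median 4), and 5 more were joined to one only through another peak.

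The share of mutant dual-ligand regions with a wild-type vehicle peak was higher far from wild-type ligand sites. At a gap of less than 1 kb from a wild-type ligand peak, which leaves out 1 region at 1 kb exactly, 11 of 1076 regions held a wild-type vehicle peak, or 1.02% (0.511 to 1.82). It was 1.03% (0.588 to 1.66) at 1 to 5 kb and 1.40% (0.962 to 1.95) at 5 to 20 kb. From 20 to 50 kb it was 34 of 1164, or 2.92% (2.03 to 4.06), and from 50 kb on 31 of 741, or 4.18% (2.86 to 5.89). Mutant vehicle peaks were held by 9.11% (7.46 to 11.0) of the nearest regions, 7.31% (6.07 to 8.72) of those at 1 to 5 kb, 9.22% (8.08 to 10.5) of those at 5 to 20 kb, 11.0% (9.26 to 12.9) of those at 20 to 50 kb and 12.4% (10.1 to 15.0) of those from 50 kb on. For the mutant vehicle list the interval of the most distant regions overlaps those of the nearest regions and of the regions at 5 to 50 kb, and lies apart only from that at 1 to 5 kb. A rise in the wild-type vehicle share is not particular to these regions. By distance to any other ligand region, it also rose in regions of all 4 ligand lists, from 12.4% under 1 kb to 17.9% beyond 50 kb.

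Mutant dual-ligand regions lay next to one another more often than their number alone gives. Of the ligand regions adjacent to one of them on chromosomes 1 to 19 and X, 16.5% were also mutant dual-ligand regions, against 10.9% of regions next to any ligand region and 10.6% of those next to a region of all 4 ligand lists. Next to a wild-type counterpart region it was 7.60%. The wild-type counterpart also lay next to itself more often: its regions were 6.59% of the neighbours of a counterpart region, against 3.11% of the neighbours of any ligand region, so that such clustering is not particular to the mutant dual-ligand regions. Pairs were counted from both sides, and the lists that chose the regions also give these shares, so they are a description. The share depended on the gap: it was 22.5% for neighbours under 1 kb away, 20.3% at 1 to 3 kb, 16.5% at 3 to 10 kb, 14.9% at 10 to 30 kb, 13.5% at 30 to 100 kb and 12.2% beyond 100 kb. Next to regions of all 4 ligand lists it stayed between 9.37% and 12.2% over the same gaps. Mutant dual-ligand regions were thus most alike to their neighbours at short range. The wild-type counterpart also had its highest share of like neighbours under 1 kb, 9.24% (6.68 to 12.4). At longer gaps that share was 4.91% to 6.95%, with intervals that overlap the one under 1 kb.

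**Figure D3:**
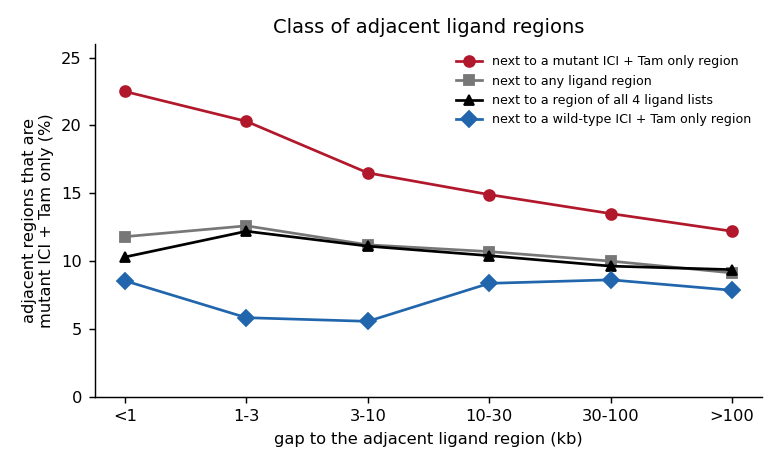
Share of adjacent ligand regions that are mutant ICI + Tam only (%, vertical axis) by the gap to them (kb, horizontal axis), for 4 kinds of starting region. The red line falls from 22.5% under 1 kb to 12.2% beyond 100 kb, and the other 3 lines stay below it at every gap.

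In runs of neighbouring ligand regions, 2032 of the 6904 mutant dual-ligand regions on these chromosomes, or 29.4%, stood in an unbroken run of at least 2, and 47 runs held 4 or more. In the wild-type counterpart, a smaller set, 12.3% stood in such runs. The longest run was on chromosome 9 at 52531817 to 52753380 (mm9, counted from 1), with 8 regions over 221564 bp. Each of its regions lay at least 96172 bp from any wild-type ligand peak, and no vehicle peak lay in any of them. The ICI and Tam midpoints of this run were 7 to 163 bp apart. The second was on chromosome 2 at 169621530 to 169659149, with 6 regions in 37620 bp, offsets of 3 to 29 bp and no vehicle peak. The third, tied with it at 6 regions, was on chromosome 10 at 87017627 to 87058244. One of its regions, at 87028325 to 87028712, also held a mutant vehicle peak and was 388 bp wide, as the vehicle peak started at 87028513, 188 bp after the ICI peak.

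Dense windows of mutant dual-ligand regions were few. Of the 15999 windows of 100 kb with a ligand region, 4770 held at least 1 mutant dual-ligand region, 464 held at least 3, and 3 held 8, the most in any window. The wild-type counterpart reached at most 4 in a window and 3 or more in 25 windows. It is the smaller set, with 1976 regions against 6905, so these window counts do not compare the clustering of the sets. Across these windows the numbers of mutant dual-ligand regions and of regions in all 4 ligand lists had a Pearson correlation of 0.25 (Spearman 0.20). Between mutant dual-ligand regions and the wild-type counterpart it was -0.01 (Spearman -0.01). Between regions in all 4 ligand lists and the wild-type counterpart it was also low, at 0.07 (Spearman 0.06). All of these counts come from the same 6 libraries, windows differ in how many sites they hold at all, and the correlations are descriptions.

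The 5 windows with the most mutant dual-ligand regions were unlike in their wild-type binding. On chromosome 2 at 172600001 to 172700000, 8 of 19 ligand regions were mutant dual-ligand regions and 10 held a wild-type ligand peak. The lists had 16 Af2KI ICI, 16 Af2KI Tam and 3 Af2KI Veh peaks there, and 6 WT ICI, 9 WT Tam and 2 WT Veh peaks. Mutant vehicle peaks fell in the regions at 172639546 to 172639755 and 172649385 to 172649595. Within both of these, the ICI, Tam and vehicle peaks started within 11 bp of one another. On chromosome 12 at 5200001 to 5300000, the other window with many wild-type sites, 8 of 22 ligand regions were mutant dual-ligand regions and 9 held a wild-type ligand peak. One of the 8, at 5274987 to 5275240, held a mutant vehicle peak, and the window held no wild-type vehicle peak.

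On chromosome 7 at 149700001 to 149800000, 8 of 10 ligand regions were mutant dual-ligand regions. The wild type had 1 ICI and 1 Tam peak in this window, against 8 ICI and 9 Tam peaks in the mutant. The region at 149711800 to 149712055 also held a mutant vehicle peak. All 8 lay between 149705716 and 149755146, at gaps of 3127 to 20561 bp from the nearest wild-type ligand peak. On the same chromosome at 56700001 to 56800000, 7 of 15 ligand regions were mutant dual-ligand regions and 3 held a wild-type ligand peak. Mutant ICI and Tam gave 14 and 11 peaks there, wild-type ICI and Tam 2 and 3. The region at 56739794 to 56740023 held the only mutant vehicle peak of the window.

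The window on chromosome 3 at 120400001 to 120500000 had no wild-type peak of any list. It held 8 Af2KI ICI, 8 Af2KI Tam and 1 Af2KI Veh peaks, and 7 of its 9 ligand regions were mutant dual-ligand regions, the others being called with 1 ligand alone. The nearest wild-type ligand peaks lay 91055 to 137344 bp from these 7 regions. The region with the vehicle peak was at 120482070 to 120482343. In all, 6 windows held 7 regions, and the 2 named here came first by chromosome and position, since the lists give no strength to rank them.

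**Figure D4:**
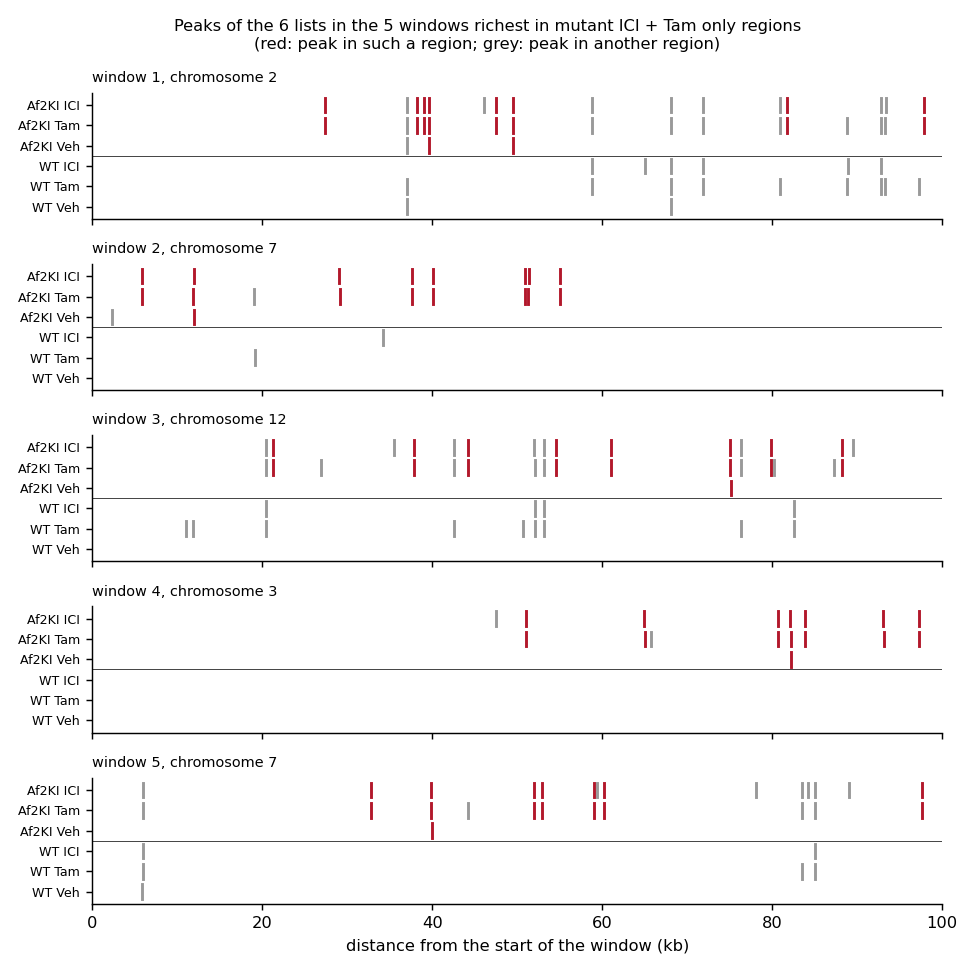
Peaks of the 6 lists (rows) by distance from the start of each 100 kb window (kb, horizontal axis) in the 5 windows with 7 or 8 mutant ICI + Tam only regions; red ticks are peaks in such a region and grey ticks peaks in any other region. Window 4, on chromosome 3, has no wild-type peak, and windows 1 and 3 have red ticks among wild-type peaks.

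Windows that held at least 4 mutant dual-ligand regions and no wild-type ligand peak were picked out once the values were known. Besides the window on chromosome 3 there were 5. On chromosome 14 at 60700001 to 60800000, all 6 ligand regions were mutant dual-ligand regions, 1 of them with a mutant vehicle peak, at 60734864 to 60735094. They formed a run over 61659 bp and lay 74143 to 135571 bp from the nearest wild-type ligand peak. The other 4 windows, on chromosome 1 at 154100001 to 154200000, chromosome 7 at 74700001 to 74800000, chromosome 9 at 52700001 to 52800000 and chromosome 11 at 8000001 to 8100000, held 4 each. With at least 3 regions as the limit there were 24 such windows of the 464.

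Along the chromosomes the mutant dual-ligand regions were even. They made up 10.9% of the ligand regions of the autosomes (10.6 to 11.1), from 9.81% (8.87 to 10.8) on chromosome 9 to 11.9% (10.8 to 13.0) on chromosome 7, and the intervals of these extremes touch. On the X chromosome they made up 10.2% (8.62 to 11.9), 136 of 1335 ligand regions, and this interval holds the autosomal share. The wild-type counterpart was 3.14% (3.0 to 3.28) of autosomal and 1.65% (1.04 to 2.48) of X chromosome ligand regions. The latter rests on 22 regions, and the intervals lie apart. Per wild-type counterpart region there were from 2.70 mutant dual-ligand regions on chromosome 12 to 4.41 on chromosome 11 among the autosomes, and 6.18 on X. The share of mutant dual-ligand regions with a mutant vehicle peak ran from 5.98% (3.74 to 9.0) on chromosome 3 to 12.7% (9.16 to 16.9) on chromosome 12, and was 8.09% (4.11 to 14.0) on X.

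**Figure D5:**
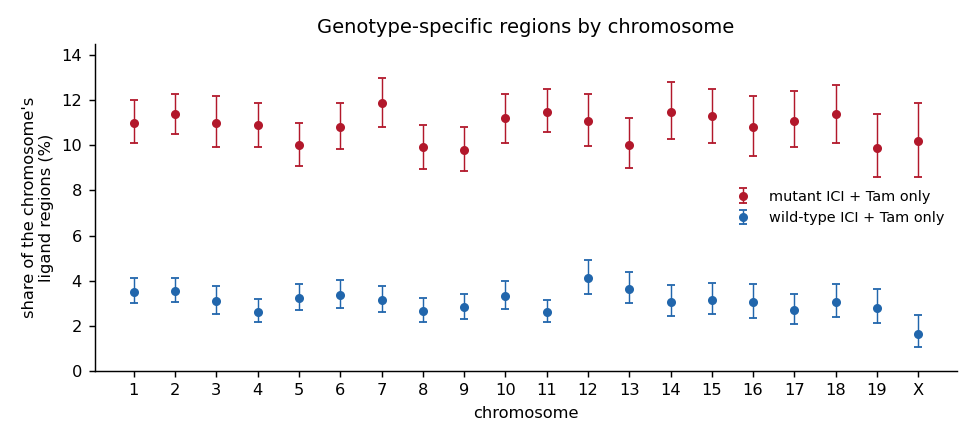
Share of each chromosome's ligand regions (%, vertical axis) that are mutant ICI + Tam only (red) or wild-type ICI + Tam only (blue); points are counts from 1 library per list and error bars exact 95% binomial intervals. The red points lie between 9.81% and 11.9% on the autosomes and at 10.2% on X, where the blue point is lowest at 1.65%.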

How the data were processed

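ERα ChIP-seq peak lists of 6 libraries were used, 1 per genotype and treatment. The submitters' processing notes name the build mm9 and, without roles, HOMER 4.10.3, bedtools 2.24.0, Bowtie2 2.1.0, Picard and SAMtools. The threshold for peaks and any subtraction of input are not given in the sources used. The deposited values are peak positions alone: every peak is 200 bp wide, with no height or p-value, so that peaks could not be ranked and depth is unknown. A peak absent from a list may be bound below the threshold.

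Regions were merged in Python 3.11.15 (numpy 2.4.6, scipy 1.17.1) on all deposited chromosomes and checked against bedtools 2.31.1, with 0 of 65146 regions differing, and tested on simulated lists. Windows, runs and neighbours used region midpoints or gaps on chromosomes 1 to 19 and X. Named were the 5 windows with the most regions and the 3 longest runs, ties by chromosome and position, and others as said. Members and gene lists were chosen with earlier results of these data known. The planned work on genes, cell type markers, estrogen response elements and sequences was left out: it needs mm9 sequence and annotation, not analysed here. The reference gene table was of GRCm38, and no coordinates were converted between builds.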

Additional observations from a re-analysis of the deposited data

How the results depend on the processing

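With 20 of 65 alternative values the result left its 95% interval or a count moved by over 1.5 times. Requiring the absence of WT ICI alone gave 14549 regions in place of 6905, since regions with a WT Tam peak then enter, with wild-type vehicle peaks in 3.49%, a ratio of mutant to wild-type vehicle peaks of 2.52, 21.9% of X chromosome ligand regions, 26.1% of like neighbours, 92.7% of ICI and Tam midpoints within 50 bp, and 1580 windows of at least 3 regions in place of 464. Requiring the absence of WT Tam alone gave 8527 regions, 13.6% of X chromosome ligand regions and 19.2% of like neighbours. Both settings keep more of the 63548 regions with a ligand peak. A larger set by itself raises the share of X chromosome regions, the like neighbours and the number of windows of at least 3 regions. Those rises are therefore not read as closer clustering or as more regions on X. Merging peaks within 1000 bp gave 5708 regions, with mutant vehicle peaks in 10.8%, wild-type ones in 2.24%, 15.1% of like neighbours and 87.5% of midpoints within 50 bp, and 298 such windows. Merging within 200 bp gave 89.0% of midpoints within 50 bp. Overlaps of at least 100 bp gave 91.6%, and a wild-type ligand peak within 1 kb of 17.1%. That share was 10.3% at 500 bp and 38.2% at 5 kb. Without regions that hold a wild-type vehicle peak, mutant vehicle peaks were in 8.04%. The ratio of mutant to wild-type vehicle peaks stayed between 4.76 and 5.32 in the other alternatives computed for it. Settings for shares beyond those planned were added after seeing the data. Other settings for estrogen response elements and transcription starts were not run, as those results need mm9 sequence and annotation. No paired analysis was possible because each group had 1 library and the labels carry no replicate number. Depth is unknown.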

Other observations

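Isolated mutant dual-ligand regions held vehicle peaks more often than those with a near neighbour, in bins set after the data had been seen. Of the 346 with no other ligand region within 50 kb, 15.0% (11.4 to 19.2) held a mutant vehicle peak and 6.36% (4.03 to 9.47) a wild-type one. Of the 1852 with a ligand region under 1 kb away, 8.80% (7.55 to 10.2) held a mutant and 0.810% (0.454 to 1.33) a wild-type vehicle peak. At 10 to 50 kb the shares were 10.9% (9.40 to 12.5) and 3.36% (2.53 to 4.36), with intervals that overlap those of the isolated regions. In regions of all 4 ligand lists the mutant vehicle share did not rise in this way: it was 8.47% (6.41 to 10.9) in the 626 isolated ones and 10.1% (9.16 to 11.1) in the 3998 with a near neighbour. Their wild-type vehicle share was 17.9% (15.0 to 21.1) and 12.4% (11.4 to 13.5) in the same order. In the wild-type counterpart, 7.53% (4.18 to 12.3) of the 186 isolated regions and 3.16% (1.69 to 5.35) of the 411 with a near neighbour held a wild-type vehicle peak, with overlapping intervals. A mutant vehicle peak was held by 1.61% (0.334 to 4.64) and 1.95% (0.844 to 3.80) of these, in the same order.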
